A study of Cyprinus carpio with 18 samples.

Results

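The predicted microRNAs of cleavage are short RNAs of whole common carp (Cyprinus carpio) embryos that the authors' files know only by sequence. They were chosen by where they are listed: an id of 19 to 23 bases, listed in at least 2 of the 3 cleavage libraries and in none of the 9 blastocyst, gastrulation and organ formation libraries. The choice left 29 of the 2742 predicted microRNAs, and of 2888 microRNAs in all. The cleavage counts and the absence from the 9 mid-embryo libraries therefore describe the choice and are no result about these RNAs. Hatching and larva libraries played no part in it, and of the sequences only the length did. The 29 are called pred1 to pred29 here, in falling order of their summed cleavage count.

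Small RNA was sequenced from wild-type embryos of the farmed FFRC No.2 strain after natural spawning. The stages were cleavage at 2 h after fertilization, blastocyst at 6 h, gastrulation at 12 h, organ formation at 20 h, hatching at 64 h, and larva at 1 day after hatching, with 3 libraries each. Per the labels, equal amounts of total RNA were pooled within a stage. Nothing says that the 3 libraries came from separate spawnings, so the spread and the p-values are those of these libraries and may be technical.

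MicroRNAs are cut from hairpin precursors and guide Argonaute proteins to messenger RNAs, mainly through the seed, bases 2 to 8 from the 5′ end. A fish embryo in cleavage lives largely on RNA and protein stored in the egg, and its own genome is broadly switched on only around the blastula stage. Programs that predict microRNAs look for reads that stack on one arm of a hairpin. The ends of a mature microRNA often vary by a base or more between molecules, mostly at the 3′ end, so that one hairpin can give several sequences, called end variants below.

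The sequences below are those on which the results turn, with bases 2 to 8 in capitals and T in place of U as the files have it. The first set shows members of the group beside a row of the same tables that is identical except for its ends, and that was listed in a mid-embryo library.
pred1: gAGGGAAAtgtggccttcata
pred1 end variant: aGGGAAATgtggccttcata
pred2: tGTGCAAAtctatgcaaaact
pred2 end variant: tTGTGCAAatctatgcaaaact
pred3: aCCTGGCAtacaatgtagatt
pred3 end variant: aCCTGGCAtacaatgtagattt
pred4: aAGTACCTggaggagaggaa
pred4 end variant: aAGTACCTggaggagaggaaa
pred6: cCCTGTAAttggaatgagct
pred6 end variant: aCCCTGTAattggaatgagc
pred17: aAGGTCCAacctcacatgtcc
pred17 end variant: aAGGTCCAacctcacatgtcct

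The second set holds the most abundant member at hatching and in the larva and the other members tested between those stages. It also holds 3 members for which neither the sequence nor an end variant among the predicted rows was listed outside cleavage.
pred11: aTAGCTCTttgaatggtactgc
pred12: tATATTATctgtgatgggcaa
pred13: aTTCTGAAcgcgatattgcat
pred24: tAGATCAGtgaacttgccttta
pred5: tGCTGGCTgctgaagagctgtct
pred9: gAACCCTGccgactacgcca
pred10: tGGACGATcgggtctggctcgat

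Library totals were 94306 to 135739 counts for cleavage. They were 369985 to 438398 for blastocyst, 157111 to 250751 for gastrulation and 60779 to 141161 for organ formation. The late libraries were deeper, with 4964459 to 6694561 counts for hatching and 5642188 to 8427601 for larva. Named microRNAs served to check the stage labels. miR-430, which fish embryos make when their own genome switches on, held 72.6% to 79.8% of the counts of the blastocyst libraries and 0.174% to 1.55% of those of the cleavage libraries. A set of 6 microRNAs of muscle, brain and liver held 0.183% to 0.471% of the counts at cleavage, against 9.38% to 9.85% at hatching and 9.29% to 10.3% in the larva. Of these 6, the brain microRNA miR-124a was nearly absent and did not follow the sum. Its highest mean, 0.00419%, was at cleavage, where single libraries ran from 0% to 0.0106%. At hatching its mean was 0.000627% and in larvae 0.000533%. The liver microRNA miR-122 did not follow the sum either, with means of 0.172% at cleavage, 0.0432% at hatching and 0.247% in larvae. One feature of the tables bears on everything below. A predicted microRNA is listed from 5 counts up, but a missing one need not have had fewer than 5. Of the 87 predicted microRNAs with at least 500 counts in a hatching or larva library, 17 were missing from another library of these stages, which have like depth. These 17 were missing 58 times in all, and in 29 of the 58 cases an end variant was listed in that library in their place. Absence is therefore written here as not listed.

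At cleavage the 29 were rare and uneven. Together they held 270, 292 and 176 counts in cleavage 1, 2 and 3, which is 0.227% ± 0.0726 (SD, n = 3) of the counts. Single listed counts ran from 5 to 42, or 36.8 to 412.7 CPM (counts scaled to the library total), and the sum over the 3 libraries had a median of 19 and a range of 10 to 71. In 12 members the sum was at most 15, so that counting error alone is large for them.

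Most of the group rests on a pair of libraries. Only pred10, pred12 and pred13 were listed in all 3, with 11, 13 and 7 counts for pred10, 5, 14 and 6 for pred12, and 9, 9 and 5 for pred13 in cleavage 1, 2 and 3. A further 16 were listed in cleavage 1 and 2 and not in cleavage 3, 5 in cleavage 1 and 3, and 5 in cleavage 2 and 3. Cleavage 3 listed 13 of the 29 and cleavage 1 and 2 listed 24 each. Cleavage 3 also listed fewest predicted microRNAs of all kinds, 169 against 308 in cleavage 1 and 350 in cleavage 2. Its library total lay between theirs. Scaled by TMM, which is less swayed by a few dominant microRNAs, its size was the smallest, at 89825 against 215354 and 206679. The named microRNA miR-738 alone held 37.3% to 76.1% of the counts of the cleavage libraries. The part of these differences between libraries in the choice of members was not tested. Kept to rows listed in both other libraries, the group would hold 8 without cleavage 1, 8 without cleavage 2 and 19 without cleavage 3.

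The most abundant members were missing from one cleavage library while high in the other 2. pred1 had 29 counts in cleavage 1 and 42 in cleavage 3, and pred2 had 23 and 40 in the same libraries, while neither was listed in cleavage 2. pred3 had 37 counts in cleavage 1 and 15 in cleavage 3, and it too was absent from the list of cleavage 2. pred4 had 24 and 18 counts in cleavage 2 and 3, pred6 28 and 9, and pred7 25 and 9, and none of these 3 was listed in cleavage 1. So of the 7 highest members 3 were missing from cleavage 2 and 3 from cleavage 1. pred5 had 14 and 27 counts in cleavage 1 and 2, pred8 6 and 25, and pred9 23 and 8, with no count in cleavage 3 for any of them. Where a member was listed, its highest cleavage count was 1.5 times its lowest in the median over the 29, and at most 4.17 times.

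**Figure D1:**
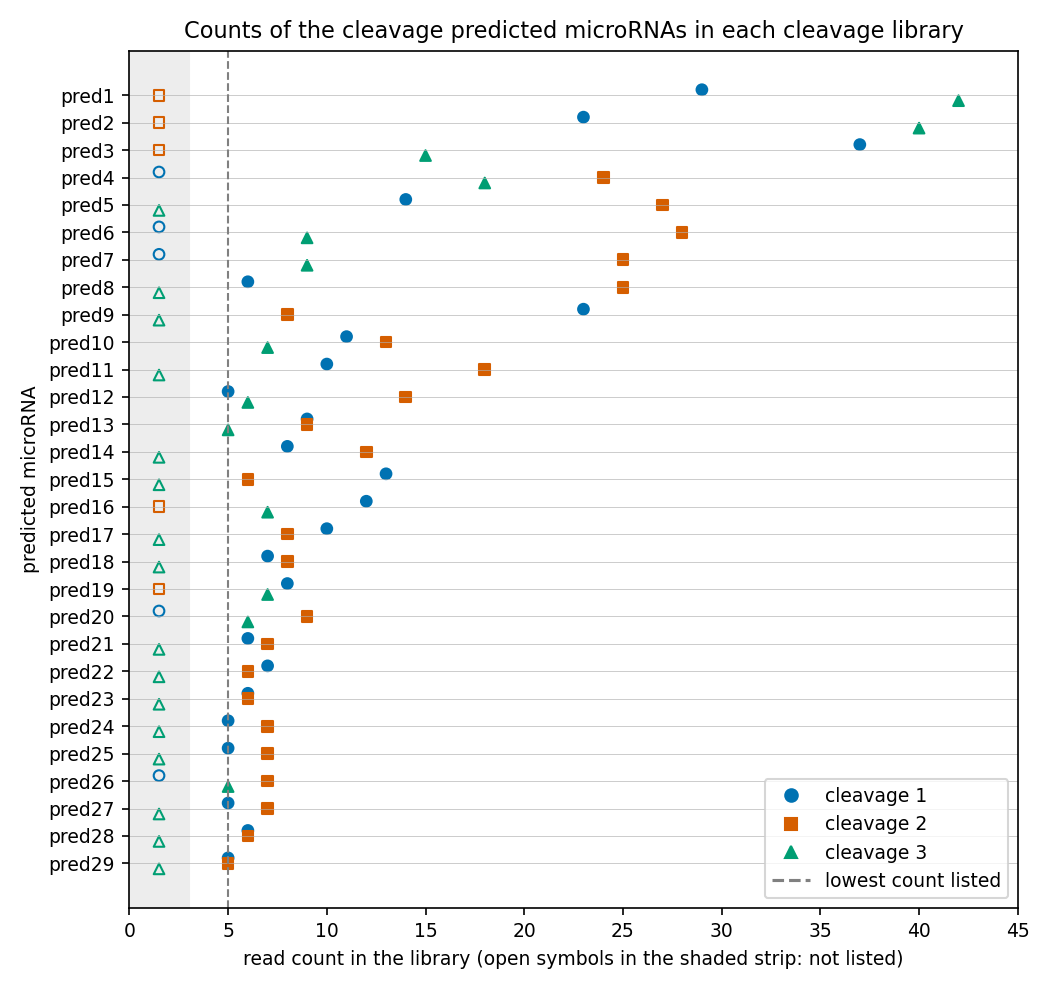
Read count (x axis) of each of the 29 predicted microRNAs (y axis, ordered by summed count) in cleavage 1, 2 and 3, with open symbols for libraries that do not list it and a dashed line at the lowest count listed, 5. Only pred10, pred12 and pred13 have 3 filled symbols, and no count exceeds 42.

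The edge of the choice is narrow. Just inside it, pred29 had 5 and 5 counts in cleavage 1 and 2, and pred28 had 6 and 6. Just outside it lay a row with 18 and 7 counts in cleavage 2 and 3 and one with 7 and 15 in cleavage 1 and 2, each kept out by 5 counts in blastocyst 3. Of all predicted microRNAs of 19 to 23 bases, 476 were listed in some cleavage library. In no mid-embryo library were 257 of the 344 listed in 1 cleavage library, 26 of the 74 listed in 2, and 3 of the 58 listed in all 3. The 26 and the 3 make up the group. They are 29 of the 132 rows listed in at least 2 cleavage libraries, and the other 103 were also listed in a mid-embryo library.

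Depth sets how much the missing counts can show. If a member had kept its mean cleavage share, the library total would give it an expected count in each of the 9 mid-embryo libraries. All 29 would have reached 5 counts in each blastocyst library and in gastrulation 1 and 2, 28 in gastrulation 3 and in organ formation 3, 13 in organ formation 1 and 11 in organ formation 2. The 11 that would have reached it in all 9 libraries are pred1 to pred11. For pred1 the expected counts ran from 12.7 to 91.5, and for pred29 from 1.82 to 13.1. With library sizes scaled by TMM, which allows for the large share of miR-430, the numbers were 4 to 21 per library, and 4 members would have reached 5 counts in all 9. These expected counts start from the cleavage values that chose the members, so they describe depth and test nothing. In samples of whole embryos, fewer cells that hold an RNA and less of it per cell cannot be told apart.

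**Figure D2:**
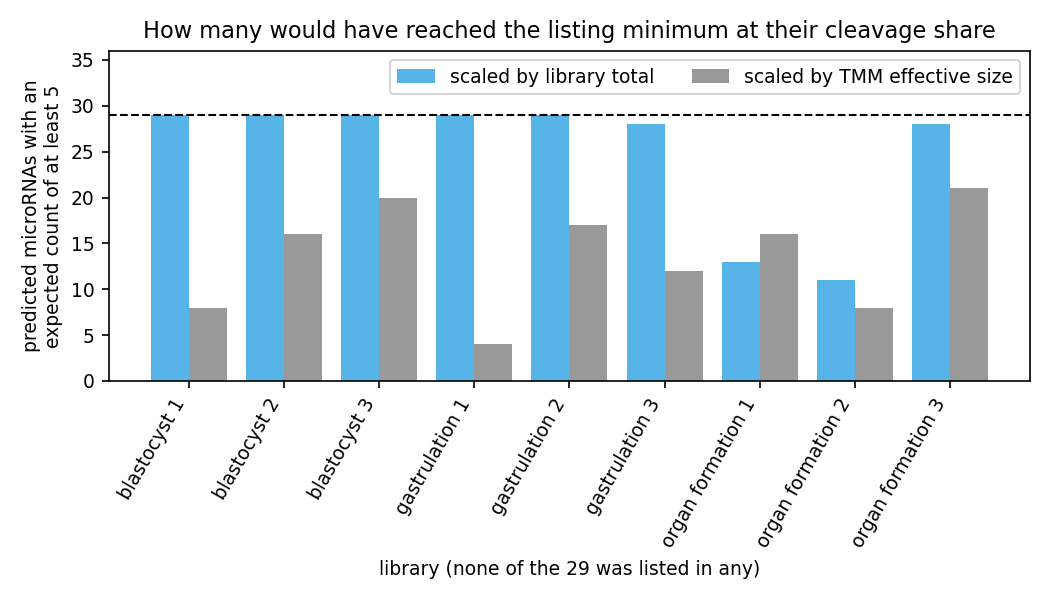
Number of the 29 predicted microRNAs (y axis) whose mean cleavage share would give at least 5 counts in each of the 9 mid-embryo libraries (x axis), by library total (blue) and by TMM effective size (grey), with a dashed line at 29. By library total the blastocyst bars reach 29 and those of organ formation 1 and 2 stop at 13 and 11, and by TMM the bars lie between 4 and 21.

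Many members had a near-identical row that was listed where they were not. End variants are predicted rows that match a member without mismatch over at least 16 bases and differ only in their ends. They were found for 11 of the 29, as 15 rows. Named microRNAs had no sequence to search, so an end variant listed under a name would be missed. Whether a member is itself an end form of a known or named microRNA was not tested. Of these 15 rows, 11 began at the same base as the member and so kept its seed, and 7 of the 11 were 1 base longer at the 3′ end. The other 4 began 1 base earlier or later, which moves the seed. For 9 members an end variant was listed in at least 1 mid-embryo library. Among the predicted rows, 20 of the 29 thus had neither themselves nor an end variant listed there. Taking a member and its end variants together, 7 of the 29 were listed in a blastocyst library, 5 in one of gastrulation and 4 in one of organ formation. The number was 11 for hatching and 12 for larva.

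The highest members were among these 9. The end variant of pred2, 1 base longer at the 5′ end, had 36 counts in cleavage 2, the cleavage library that lacked pred2. It also had 19, 25 and 46 counts in blastocyst 1, 2 and 3 and 9 in gastrulation 1. For pred3 the variant with 1 more T at its 3′ end had 15 counts in cleavage 3, the same number as pred3 itself there. That variant had 14 counts in blastocyst 2, 21 in gastrulation 3 and 3170 in hatching 3, and in larva 1, 2 and 3 it had 2710, 2999 and 4682. A form 5 bases longer than pred3 had 4692 counts in hatching 1, and one 3 bases longer had 14 in blastocyst 2. Hatching 2 listed none of the 4 forms of pred3.

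Further members behaved alike. pred4 ended 1 base short of a row with 18 counts in blastocyst 2, 9 in gastrulation 2 and 8 in gastrulation 3, while a row shifted by 1 base had 14 and 20 counts in blastocyst 1 and 3. pred6 overlapped a row that begins 1 base earlier and ends 1 base earlier. That row was listed in 6 of the 9 mid-embryo libraries, with 5 counts in blastocyst 3, 11, 10 and 13 in gastrulation 1, 2 and 3, and 29 and 34 in organ formation 1 and 3. It also had 10 and 8 counts in cleavage 2 and 3, beside the 28 and 9 of pred6 itself. The variant of pred1, which lacks its first base, had 16 and 23 counts in organ formation 1 and 2 and was listed in no other library.

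Outside the 10 highest members, 4 further ones had an end variant at mid-embryo, and pred15, pred16 and pred17 among them are named here after their values were seen. The variant of pred17 with 1 more T had 5 counts in cleavage 3, the cleavage library that lacked pred17, was listed in 5 mid-embryo libraries at 5 to 23 counts, and reached 887 to 1212 counts at hatching and 1190 to 6903 in the larva. pred16 had 12 and 7 counts in cleavage 1 and 3, and its 1 base longer variant had 73 in cleavage 2, then 6 and 7 in blastocyst 2 and 3 and 12 in hatching 1. For pred15 the variant had 9 counts in organ formation 1, and for pred11 a form 2 bases shorter had 8 in blastocyst 3.

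**Figure D3:**
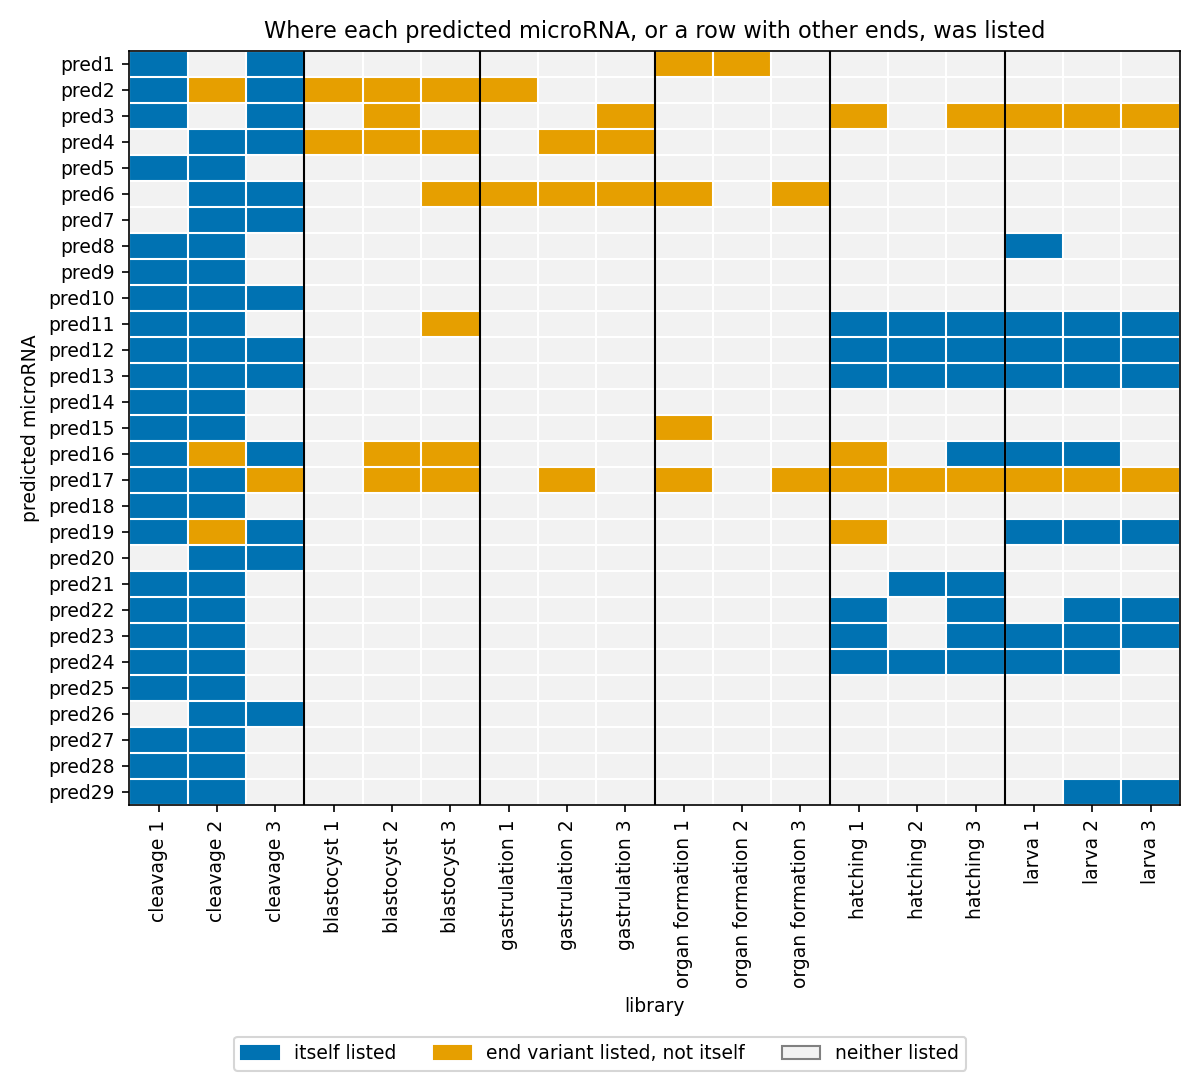
Each of the 29 predicted microRNAs (rows) in each of the 18 libraries (columns, by stage), blue where it is itself listed, orange where only an end variant is, and pale where neither is. Orange cells fill part of the 9 mid-embryo columns for 9 members, and in cleavage 2 orange cells stand for pred2, pred16 and pred19, which that library does not list.

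A member and its end variant were seldom listed in the same library. Among the end variants of the group this happened 4 times, once with equal counts. Over all 653 pairs of end variants with at least 1 predicted microRNA of 19 to 23 bases, a library listed only 1 of the pair in 2940 cases and both in 236, or 7.43% of the cases that listed either. The share of members with an end variant was 37.9%, against 32.9% of the 2423 other predicted microRNAs of the same lengths. An end variant listed at mid-embryo was found for 31.0% of the members and 7.26% of the others. It was found for 16.5% of the 103 rows that were in at least 2 cleavage libraries and also at mid-embryo, and for 12.8% of the 257 listed in 1 cleavage library and none of mid-embryo. These shares were not tested, since the rule fixed where the members themselves could be listed.

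Single mismatches linked 5 members to 8 further rows, where positions count from the member's 5′ end and the member's base is given first. Whether such a row is a form of the member or comes from a separate gene was not tested. For pred2 such a row, with T11C and 2 more bases at its 3′ end, was listed in all 18 libraries. Its counts were 18 to 35 in the cleavage libraries, 8 to 41 in blastocyst, 8 to 33 in gastrulation, 74 to 342 in organ formation, 2055 to 3423 in hatching and 723 to 1137 in larva. It shares the seed of pred2. For pred13 a row with C4A, inside the seed, was listed in 2 larva and 3 hatching libraries at 14 to 28 counts. pred2 was the only member with a mismatch row at mid-embryo, and it already had an end variant there.

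The 29 had 29 different seeds, and no pair of them was related by end or by a single mismatch. Without genome positions, whether any of them share a precursor was not tested. A seed was shared with some other predicted microRNA by 13 of the 29, or 44.8%, against 48.2% of the other predicted microRNAs of 19 to 23 bases. The members were chosen within 19 to 23 bases, with a median of 21 bases and 9 of 29 at 20, or 31.0%, while 5 of 29 had 22 bases, or 17.2%. Among the others the median was 22, with 10.2% at 20 bases and 47.3% at 22, the usual length of an animal microRNA. The 257 rows listed in a single cleavage library and not at mid-embryo had 21.8% at 20 bases and 32.7% at 22. For the 103 rows that met the cleavage rule but were also listed at mid-embryo, the shares were 15.5% and 41.7%. At each length both sets of rows lay between the members and the others, so the difference was not particular to the members. Among the 41 predicted microRNAs listed at every stage, 12.2% had 20 bases and 48.8% had 22. T, read as U in RNA and the usual first base of a microRNA, opened 16 of the 29, or 55.2%, against 48.0% of the others. It opened 65.8% of the 257 rows and 53.4% of the 103. The median GC content was 42.9%, against 45.5% among the others, 47.6% in the 257 rows and 47.6% in the 103. These differences were not tested.

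By later listing the group falls into 3 sets, drawn, and their members named, after the values were seen, and so not tested. In 11 members, neither the sequence nor an end variant among the predicted rows was listed outside cleavage. They are pred5, pred7, pred9, pred10, pred14, pred18, pred20, pred25, pred26, pred27 and pred28. In 7 an end variant was listed later and the member was not, and 11 were themselves listed again at hatching or in the larva. Median GC content was 56.5% in the first set, 47.6% in the second and 38.1% in the third. These sets overlapped widely. The GC range of the first set enclosed those of the second, 33.3% to 52.4%, and the third, 33.3% to 47.8%. Median summed cleavage counts were 15, 42 and 15 in the same order, with overlapping ranges of 12 to 41, 18 to 71 and 10 to 31.

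Counts at hatching and in the larva come from libraries the choice did not use. Of the 29 members, 11 were listed there, 10 in the larva and 8 at hatching. Beside them, 49 of the 257 rows listed in 1 cleavage library and in no mid-embryo library were listed late. The difference was not tested. Of the members, only pred11, pred12 and pred13 were listed in all 6 libraries. pred8, pred19 and pred29 were listed in the larva and not at hatching, and pred21, named here after its values were seen, at hatching and not in the larva. Together the members held 0.227% ± 0.0726 of the counts at cleavage, 0.00788% ± 0.000327 at hatching and 0.0155% ± 0.00469 in larvae (SD, n = 3 each), where cleavage is the stage they were chosen by. The late shares are mostly those of 1 member, pred11, with 2941 of the 3285 larva counts and 1063 of the 1317 hatching counts. Without it the other 28 held 0.218% ± 0.0632 at cleavage, 0.00156% ± 0.000410 at hatching and 0.00172% ± 0.000290 in larvae, and the ranges of the larva and hatching libraries overlap. The late libraries are far deeper. Brought to 94306 counts, the lowest total of a cleavage library, 1 of the 11 would have reached 5 counts in any of them. The highest value of the other 10 would have been 0.570 counts.

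pred11 is that one. It had 10 and 18 counts in cleavage 1 and 2 and was not listed in cleavage 3. In the late libraries it had 586, 719 and 1636 counts in larva 1, 2 and 3, against 451, 307 and 305 in hatching 1, 2 and 3. In CPM that is 103.9, 115.0 and 194.1 in the larva and 67.4, 60.9 and 61.4 at hatching, so the stages did not overlap and larva 3 stood highest. How many of all microRNAs tested separate likewise was not counted. The log2 fold change of larva over hatching was 1.18 (SE 0.30), which did not pass the quasi-likelihood test of edgeR after Benjamini-Hochberg adjustment (adjusted p = 0.0697, n = 3 libraries each). DESeq2 called it, at 1.10 (SE 0.30, adjusted p = 0.00188), as did edgeR without larva 3, at 0.81 (SE 0.12, adjusted p = 0.0251). Over all microRNAs tested, DESeq2 called 72 higher and 44 lower of 612, and edgeR without larva 3 called 46 higher and 27 lower of 747. For pred11 the 13 alternatives gave adjusted p-values of 0.00188 to 0.863. Its mean level was 88.2 ± 96.3 CPM at cleavage with the missing library as 0, 63.2 ± 3.58 CPM at hatching and 137.7 ± 49.2 CPM in larvae (SD, n = 3 each).

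The other listed members were scarce in both late stages. pred12 had 17, 25 and 14 counts in larva 1, 2 and 3 and 15, 20 and 18 in hatching 1, 2 and 3, which overlap. pred13 had 13, 15 and 6 counts in the larva and 16, 21 and 30 at hatching. In CPM that is 2.30, 2.40 and 0.712 in the larva and 2.39, 4.17 and 6.04 at hatching, so the stages overlap. pred24 had 22 and 17 counts in larva 1 and 2, was not listed in larva 3, and had 34, 18 and 20 at hatching. pred19 had 8, 18 and 34 counts in the larva, and pred22 had 9 and 22 in larva 2 and 3 and 10 and 12 in hatching 1 and 3. Apart from pred11, no member exceeded 34 counts in any of these libraries. The mean CPM of 10 of the 11 was below the cleavage mean at both later stages, with pred11 the exception, but a comparison with the stage used to choose them is a description.

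Few members could be tested between the late stages. The filter on low counts kept 4 of the 29, pred11, pred12, pred13 and pred24, among 612 microRNAs, and none of the 4 had an end variant listed in these libraries. Of all 612, 8.01% were called, 5.23% higher and 2.78% lower in the larva. None of the 4 members passed edgeR's test in either direction. An unadjusted p under 0.05 was found for 1 of them, and the share of all 612 under it was not counted. DESeq2 called 1 of the 4, and among all 612 it called 72 higher and 44 lower in the larva. The log2 fold change was −0.14 (SE 0.50, adjusted p = 0.942) for pred12, −1.17 (SE 0.64, adjusted p = 0.377) for pred13 and −0.92 (SE 1.34, adjusted p = 0.828) for pred24. The value for pred24 takes its missing entry in larva 3 as 0. It was −0.84 (SE 0.68) with 4 counts for what is not listed, and −0.34 (SE 0.34) without larva 3. The median of the 4 was −0.53, against −0.01 over all microRNAs tested and −0.14 over the 470 predicted ones. With 0 of 4 called against a background of 8.01%, the count does not set the members apart.

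**Figure D4:**
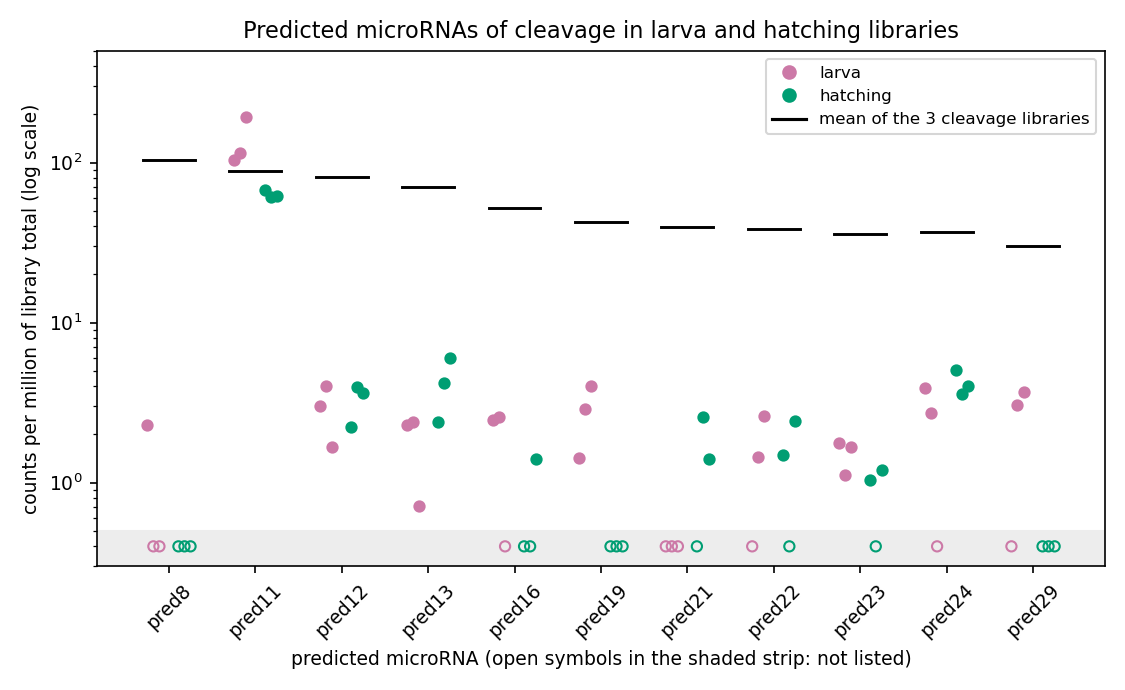
CPM of library total (y axis, log scale) of the 11 predicted microRNAs listed at hatching or in the larva, with 1 point per larva library (pink) and per hatching library (green), open in the shaded strip where not listed, and a bar at the mean of the 3 cleavage libraries. pred11 lies between 60.9 and 194.1 CPM in the late libraries, and all points of the other 10 lie below their cleavage bar.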

How the data were processed

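Small RNA libraries of 6 stages, 3 each, were grouped by the stage in the labels. Per the labels' protocols, RNA was extracted with TRIzol, pooled per stage in equal amounts, ligated to adapters and sequenced as single-end reads on an Illumina HiSeq. The authors deposited 1 file of raw, unnormalized counts per library, with a count for each mature microRNA, and a table of TPM values. FastQC and edgeR are named in the submitters' processing notes. The aligner, the genome build, the program that predicted microRNAs and its handling of reads shared by near-identical sequences are each not given in the sources used here. No genome position or mature sequence of a named microRNA was used. The deposited TPM values are proportional to the counts to within 0.0387%, give 0.01 to what is not listed, and imply library totals of which the listed counts are 66.3% to 81.0% at cleavage and 97.4% to 97.9% at hatching and in the larva. They served only as another denominator. Depth ran from 60779 to 8427601 counts per library. Between any replicates the chi-square of the counts divided by its degrees of freedom was at least 35.3, far above sampling noise. It was highest for larva 3, at 559.8 against larva 1 and 550.8 against larva 2, while larva 1 and 2 gave 74.3. For the hatching and larva libraries, the common coefficient of variation between replicates that edgeR estimated was 0.807.

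Rows missing from a library entered as 0. Larva was compared with hatching on the 6 libraries of these stages with edgeR 4.0.16 in R 4.3.3 (TMM, filterByExpr with a count minimum of 10, robust glmQLFit, glmQLFTest), adjusted over the 612 microRNAs tested at a threshold of 0.05. Each SE is the size of the log2 fold change divided by the root of its F statistic. Alternatives were all 18 libraries in 1 fit, RLE size factors, library totals, no filter, DESeq2 1.42.0, the replicate number as a block, 4 counts for what is not listed, and each library left out. Near-identical rows were found by ungapped overlap of at least 16 bases, in Python 3.11.15, a search added after the data were seen.

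The members and lists were chosen with earlier results of these data known. Named are the 10 members with most cleavage counts, the 6 with most late counts, 2 just inside and 2 just outside the rule, and any marked as named after their values were seen; members with a carp microRNA's seed, called members and groups of overlapping members were also to be named, but the first had no sequences to match and the others had no member.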

Additional observations from a re-analysis of the deposited data

How the results depend on the processing

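The size of the group moved most. It was 3 when listing in all 3 cleavage libraries was asked for, 7 with at least 10 counts in 2 of them, and 8 to 19 with a cleavage library left out, while any length of sequence gave 34. The 11 members expected to reach 5 counts in all 9 mid-embryo libraries became 4 with TMM effective sizes and 5 to 13 with a cleavage library left out. The number of members called higher in the larva was 0, but 1 with DESeq2 and 0 to 1 with a library left out, where it was pred11 without larva 3. Over all microRNAs tested it was 32 of 612, but 72 of 612 with DESeq2 and 46 of 747 without larva 3. The number of members called lower was 0 under every alternative run. For pred12 the log2 fold change turned sign without hatching 2, at 0.04, and without larva 3, at 0.12, over a range of −0.54 to 0.12 with a library left out. For pred11 this range was 0.81 to 1.26, for pred13 −1.52 to −0.78 and for pred24 −1.57 to −0.34. The shares of counts held by the members moved by less than 1 SD with another denominator or a library left out. With pred11 left out, chosen after seeing the data, they became 0.00172% in the larva and 0.00156% at hatching. Deviations from the stage mean had correlations of 0.01, 0.11 and −0.08 between same-numbered larva and hatching libraries. Between libraries of unlike number they ran from −0.11 to 0.09. With 3 libraries per stage this cannot decide whether the numbers pair them. With the replicate block in edgeR 0 of 612 microRNAs were called in place of 49, and pred11 had 1.12 (adjusted p = 0.222). Chosen after seeing the data, an overlap of at least 18 bases left the 9 members with an end variant at mid-embryo at 9, leaving out a mid-embryo library gave 8 to 9, and leaving out a late library gave 10 to 11 members listed late. Depth limits the group throughout, since 12 of the 29 had at most 15 cleavage counts in all.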

Other observations

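pred29 was the only member with a row that is its reverse complement over at least 16 bases. A row of 23 bases was complementary to it over 21, and was listed in 2 larva libraries and 1 hatching library with 25 counts in all. A row of 24 bases was complementary over 22, with 7 counts in 1 hatching library. pred29 itself had 19 and 31 counts in larva 2 and 3. The sequences are given with bases 2 to 8 in capitals.
pred29: tTGCATAGtcacaaaagtgatc
complementary row of 23 bases: aTCACTTTtgtgactatgcaact
Another row differs from pred29 by G17A and was listed in all 6 late libraries, at 14 to 24 counts in the larva and 7 to 18 at hatching. Besides the 29, 5 predicted microRNAs of other lengths met the rest of the rule.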
